A study of Mus musculus with 7 samples.

Results

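The first days of muscle regrowth after disuse, d1, d3 and d5 of reloading, were compared with the later days, d7, d10 and d14. The arrays were chosen by the day in their labels: 3 arrays made up the early side and 3 the late side, 6 of the 7 arrays of the series. The array of d0, the end of suspension and the control named in the labels, was left out of the comparison, and its values are printed for reference only. Every array holds left plantaris RNA from male C57BL/6J mice aged 5 months whose hind limbs had been unloaded for 2 weeks by hind limb suspension, so all groups share the suspension. After d0 the animals bore weight again for 1, 3 or 5 days (early) or for 7, 10 or 14 days (late). Each day is a single Affymetrix Mouse Gene 1.0 ST array hybridised with a pool of 6 animals, and no day was repeated. The days of a side therefore stand in for replicates: the error of the comparison holds any course over time within a side as well as the difference between pools.

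The plantaris lies in the calf, and most of its fibres are fast. Unloading shrinks its fibres and reloading stretches and strains them, which calls on chaperones, cytoskeletal repair and inflammatory cells that clear damage. Fibres that carry load again are also known to restore contractile protein and the mitochondrial enzymes that burn fat, amino acids and sugar. Heat shock genes are switched on through heat shock elements in their promoters, and cAMP response elements are found in the promoters of many housekeeping and metabolic genes.

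Promoters are shown for genes on each side whose RefSeq window (GRCm38.p6, 250 bases before the start site) held one of the motifs searched for. Hspe1 and Hspd1, the mitochondrial chaperonins, share 1 promoter region in opposite orientations, and both lay wholly above on the early side. Mdh2 and Ogdh, enzymes of the citric acid cycle, lay wholly above on the late side. All 4 genes fall outside the rule for named genes and were chosen after their values were seen. Capitals mark the heat shock element (GAA, TTC and GAA units in a row with 2 free bases between neighbours, or the reverse complement; 2 overlapping matches that begin 89 and 84 bases before the Hspe1 start site) at chr1:55088053-55088082, plus strand. In the other sequences they mark the cAMP response element (TGACGTCA), at chr5:135778462-135778589 for Mdh2 (127 bases before the start) and chr11:6291486-6291596 for Ogdh (51 bases before the start), both on the plus strand.
Hspe1: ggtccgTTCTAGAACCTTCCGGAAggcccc
Mdh2: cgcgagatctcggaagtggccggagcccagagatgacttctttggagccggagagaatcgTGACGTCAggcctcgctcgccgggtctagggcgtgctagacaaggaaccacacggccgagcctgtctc
Ogdh: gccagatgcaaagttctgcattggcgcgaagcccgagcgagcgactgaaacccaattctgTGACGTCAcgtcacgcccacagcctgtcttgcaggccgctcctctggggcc

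Array medians were 128.1 to 131.8 in intensity, and 12053 genes were bright enough on at least 1 of the 6 arrays to be kept. Values are linear intensities, and a difference is the mean log2 intensity of the late days minus that of the early days, with its standard error from limma. A gene is said to lie wholly above on a side when all 3 arrays of that side exceed all 3 of the other. The spread between single arrays (robust SD of the log2 ratio over genes) was widest for d1 against d7, at 0.191. It was narrowest across the sides as well, for d3 against d14 (0.0894) and d5 against d14 (0.0895). The early pair of d3 against d5 was nearly equal to these, at 0.0896. Pairs within a side reached 0.149 (d1 against d5) and 0.140 (d7 against d10), so arrays of one side were not always the closer. Defining markers of fast skeletal muscle, the labelled tissue, were bright on every array. No marker list held a gene at 0, but intensities never fell under 5.2, so a search for 0 could not reveal absent markers. Only 2 of 7 T and B cell markers and 3 of 5 eosinophil markers on the array were bright enough to be kept. Precision is limited by the number of arrays.

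No gene passed limma's test at an adjusted p of 0.05, 0 higher early (0.0%) and 0 higher late (0.0%). The smallest adjusted p was 0.41, for Slc27a1. At an unadjusted p of 0.05 in limma, 208 genes (1.73%) were higher early and 588 (4.88%) higher late. Without an intensity trend and with robust moderation limma also called 0 genes, with smallest adjusted p of 0.29 and 0.32. The results below are therefore descriptions of these 6 arrays: 303 genes (2.51%) lay wholly above early and 900 (7.47%) wholly above late. Late genes made up 74.8% of these, and 63.7% after quantile normalization of the 6 arrays, which gave 617 early and 1081 late genes. With equal array medians the late share rose to 79.0%, from 292 early and 1096 late genes. Leaving out any 1 array raised both counts, since fewer arrays then have to be in order. Over all genes the share wholly above early became 4.07% without d1, 4.62% without d3, 8.63% without d5, 5.46% without d7, 8.19% without d10 and 3.52% without d14. The share wholly above late became 15.3%, 10.6%, 11.6%, 14.8%, 12.4% and 11.3% in the same order, and counts given below without an array stand against these shares.

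The few large differences lay on the early side and the many small ones on the late side. Among genes wholly above early, 25 (0.207% of all genes) differed at least 1.5-fold and 7 at least 2-fold. Among those wholly above late, 5 (0.0415%) differed at least 1.5-fold and 0 at least 2-fold. Whatever the overlap, mean differences of at least 1.5-fold were seen in 30 genes (0.249%) higher early and 10 (0.083%) higher late. The median size was 0.19 log2 for the early set and 0.16 for the late set, against 0.050 for genes whose sides overlapped. In the plot of differences against p the early genes reach far to the left and the late genes form a dense narrow band on the right.

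**Figure D1:**
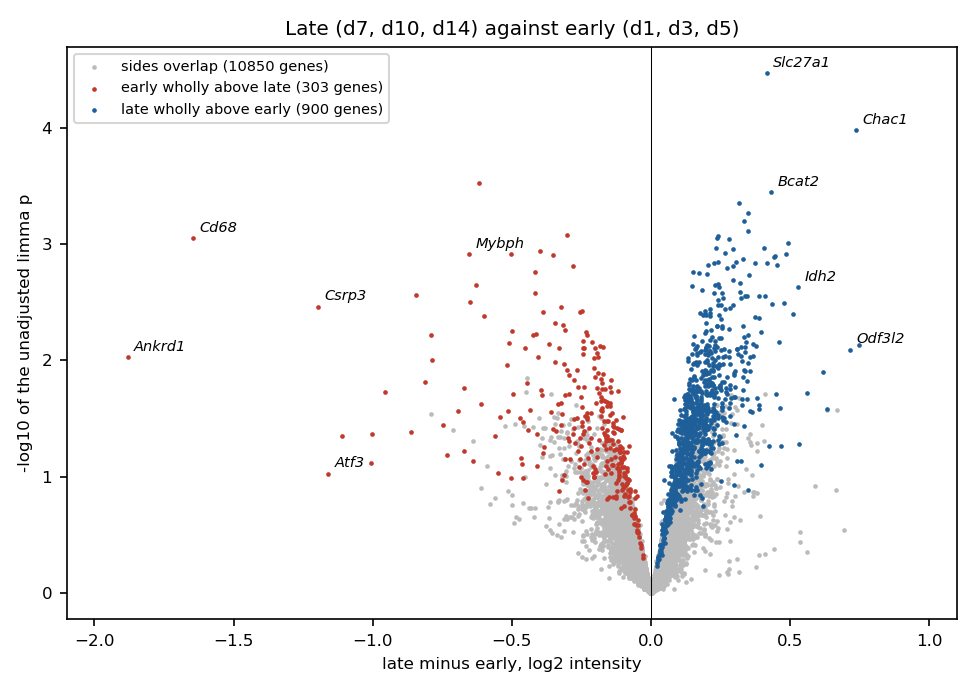
Late minus early difference in log2 intensity (x axis) against -log10 of the unadjusted limma p (y axis), 1 point per gene. The 303 genes wholly above early are red, the 900 wholly above late are blue and genes whose sides overlap are grey; Ankrd1 lies farthest left and Slc27a1 highest.

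The largest early difference, that of Ankrd1, belonged to a list of mechanical stretch and Z-disc genes that held members on both sides. Of 29 genes on this list, 8 (27.6%, against 2.51% of all genes) lay wholly above early and 5 (17.2%, against 7.47%) wholly above late, with a median of -0.09. Ankrd1, an ankyrin repeat protein that binds titin, had intensities of 3007, 1078 and 676 on d1, d3 and d5 and of 369, 370 and 321 on d7, d10 and d14. All early arrays were above all late ones, d1 the most, and d0 was lower still at 247. The difference was -1.88 ± 0.51 (limma, unadjusted p 0.0093, adjusted p 0.63), and -1.27 without d1. Csrp3, a LIM domain protein that anchors at the Z-disc, ran 6741, 4773 and 3504 early and 2603, 2144 and 1679 late. Each later day was lower than the one before, yet Csrp3 stood above its d0 value of 780 on all 6 days, and differed by -1.20 ± 0.26.

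Xirp1, a Xin repeat protein that binds actin where myofibrils are repaired, had intensities of 6668, 2704 and 1882 early and 1751, 1473 and 1310 late. Its difference of -1.11 ± 0.44 became -0.59 without d1. For Otud1, a deubiquitinase, the values were 908, 424 and 294 early and 268, 263 and 200 late. Otud1 was 2.00-fold higher early, and its log2 difference was -0.55 without d1. In both genes the sides are divided by a narrow step between d5 and d7, and d1 stands far above the other arrays. The Z-disc and M-band proteins Tcap (0.18), Myom2 (0.21) and Myoz3 (0.22) lay wholly above on the other side, late. Without d5, 16 genes of the list (55.2%, against 8.63% of all genes) lay wholly above early.

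Actin remodelling genes and tubulins lay to the same side. Of 35 genes of the actin and serum response factor list 4 (11.4%, against 2.51% of all genes) lay wholly above early and 1 late. The median was -0.08, and without d5 the early count was 17 (48.6%, against 8.63%). Enah, which promotes actin filament growth, had intensities of 2089, 1089 and 807 early and 711, 748 and 576 late (-0.86 ± 0.34, and -0.48 without d1). Abra, an activator of serum response factor signalling, differed by -0.51 ± 0.18 (-0.31 without d1), and Wdr1, a cofactor of actin disassembly, by -0.40 ± 0.13 (-0.26 without d1). Of 11 tubulins 4 (36.4%, against 2.51% of all genes) lay wholly above early and 0 late, with a median of -0.14. Tubb6 stood at 1446, 753 and 618 early and at 478, 476 and 406 late, below its d0 value of 510 on all late days. The Tubb6 difference was -0.95 ± 0.30, and -0.59 without d1; the other 3 tubulins, Tubb4a, Tuba4a and Tuba1a, differed by -0.16, -0.08 and -0.05.

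**Figure D2:**
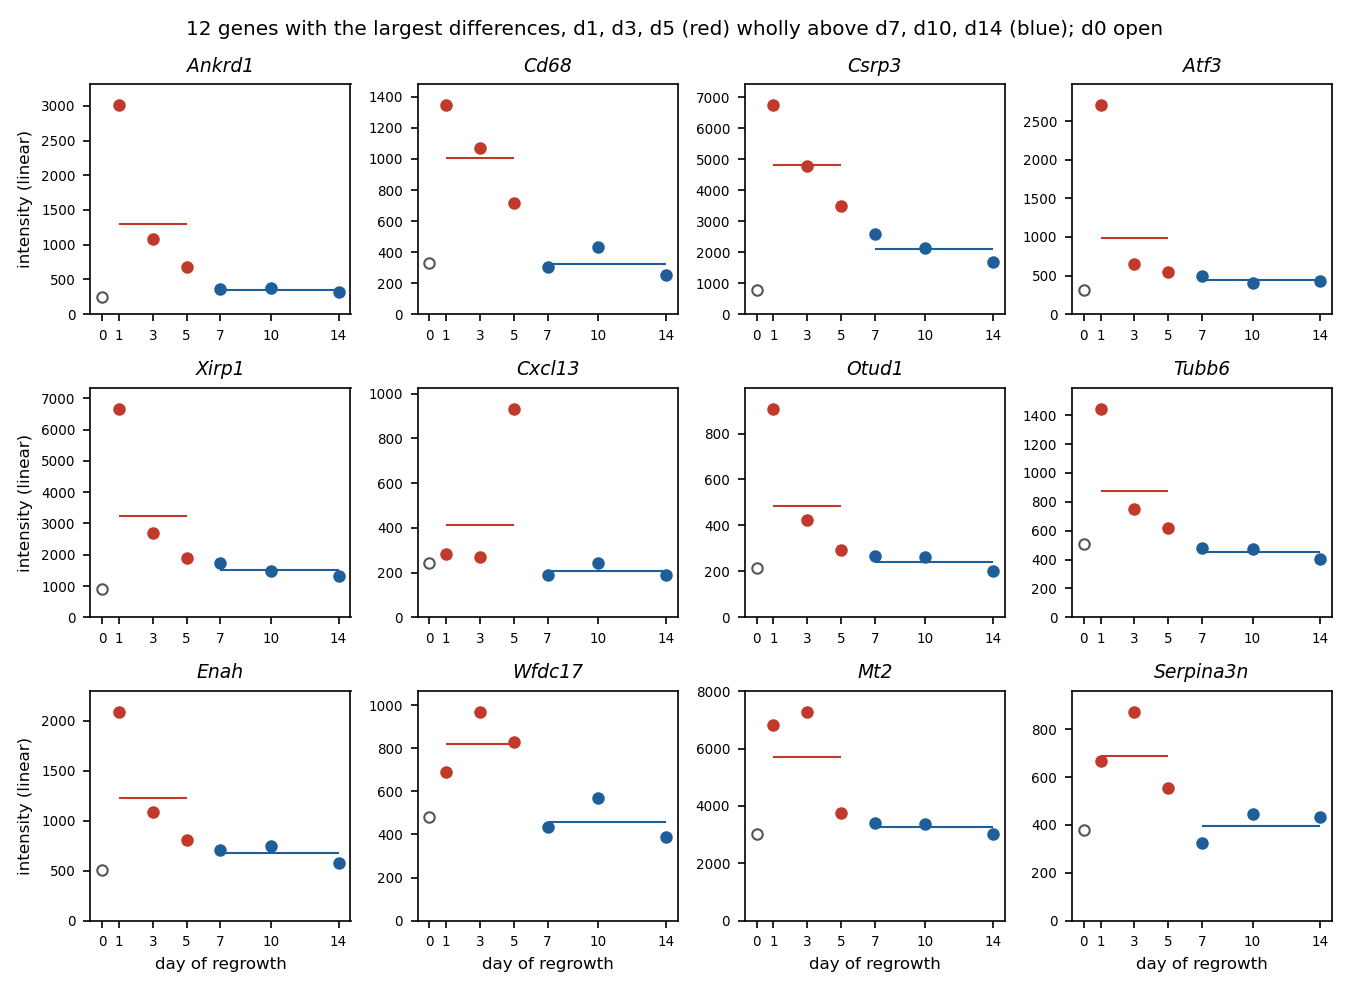
Intensity (linear y axes from 0) on each day of regrowth for the 12 genes with the largest differences among those wholly above early. Red points are d1, d3 and d5, blue points d7, d10 and d14, open points d0, and lines the mean of each side taken on the log2 scale; d1 is the highest array for Ankrd1, Csrp3, Atf3, Xirp1, Otud1, Tubb6, Enah and Cd68, and d5 for Cxcl13.

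Some stress genes outside the lists of structure were among the largest early differences as well, while several stress lists held more late than early genes. The integrated stress response list had 0 of 19 genes wholly above early and 3 late (15.8%, against 7.47% of all genes). Growth arrest and p53 genes had 1 of 17 early and 4 late (23.5%). Redox and NRF2 targets had 2 of 27 early (7.41%, against 2.51%) and 4 late (14.8%). Atf3, a stress-induced transcription factor, had intensities of 2704, 643 and 545 early and 495, 406 and 423 late. Its difference of -1.16 ± 0.59 rested mostly on d1 and was -0.43 without it. Mt2, a metallothionein that binds zinc and copper, was 6819, 7283 and 3761 early against 3391, 3374 and 3016 late (-0.81 ± 0.25), and Mt1 differed by -0.43 ± 0.15. Here d1 and d3 were high and d5 lay close to the late days. Serpina3n, a secreted protease inhibitor, stood at 667, 873 and 556 early and 323, 446 and 434 late, highest on d3 (-0.79 ± 0.20).

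Heat shock proteins and their cochaperones formed one of the 2 largest early groups by count. Of 38 genes 17 (44.7%) lay wholly above early and 1, Hspa2, wholly above late. The means of 35 were higher early, the median was -0.19, and 27 (71.1%, against 8.63% of all genes) lay wholly above early without d5. Hsp90aa1, the inducible cytosolic HSP90, had intensities of 1969, 1136 and 873 early and 767, 774 and 695 late (-0.75 ± 0.28, and -0.42 without d1). Hspa1a, an inducible HSP70, ran 1389, 666 and 581 early and 533, 533 and 412 late (-0.73 ± 0.33, and -0.35 without d1). Both were highest on d1 and close to the late days by d5. Hspb1, a small heat shock protein that protects actin filaments, stood at 14220, 11773 and 9528 early and 8776, 8287 and 7507 late, each day lower than the last (-0.52 ± 0.14). Hsph1, a nucleotide exchange factor for HSP70, differed by -0.61 ± 0.21 (-0.38 without d1).

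The chaperonins whose shared promoter is printed above differed in size. Hspe1 has a pair of probe sets, and both lay wholly above early: 2565, 1946 and 1924 against 1412, 1526 and 1584 on the brighter, and 2466, 1838 and 1789 against 1416, 1556 and 1527 on the other. The brighter differed by -0.50 ± 0.12. Hspd1 had values of 2205, 2045 and 2212 early and 1989, 1899 and 1825 late on its brighter probe set (-0.18 ± 0.06), and on the other, where d3, d7 and d10 were equal at 1487, the sides overlapped. Probe sets of one symbol can read copies of the gene, so these values are uncertain in their source. The heat shock element was found, on both strands, in 0.466% of all 32851 promoters. Of the 249 early genes with a promoter 4 held it (1.61%, against 0.49% of all genes kept), Hspd1, Hspe1, Rps18 and Vps52. Hspd1 and Hspe1 count the same site, the one printed, and they were the only ones of the 13 early heat shock genes with a window to hold it. A match is a run of letters, not a measured binding site, and a window without one says nothing about the factor.

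All 8 subunits of TRiC, the cytosolic chaperonin that folds actin and tubulin, had higher means early. For 5 of them (62.5%, against 2.51% of all genes) the early arrays lay wholly above, and for 0 the late ones, with a median of -0.19. Cct6a had intensities of 2176, 1911 and 1899 early and 1671, 1655 and 1501 late, a difference of -0.31 ± 0.07. Cct4 and Cct7 each differed by -0.19, and Cct3 by -0.25 ± 0.12, which became -0.13 without d1. For Cct6a, d3 and d5 lay about midway between d1 and d7. Chaperones of the endoplasmic reticulum had 1 of 27 genes wholly above early (3.7%, against 2.51% of all genes) and a median of -0.10, although 25 means were higher early. Without d1 their median was -0.0017, with 1 early and 2 late (7.41%, against 15.3%). Without d5 their early count was 5 (18.5%, against 8.63%). Their main members Hsp90b1 (1891, 1215 and 1115 early; 1105, 1125 and 1091 late) and Hspa5 (2780, 1658 and 1685 early; 1788, 1701 and 1576 late) overlapped, with only d1 high.

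Cytosolic ribosomal proteins formed the other large early group. Of 59 genes 23 (39.0%) lay wholly above early and 0 late, 56 means were higher early, and the median was -0.11. Rps28 had intensities of 1899, 1803 and 2035 early and 1298, 1534 and 1473 late, a difference of -0.42 ± 0.08 (limma, unadjusted p 0.0017). For Rps12 the values were 1705, 1750 and 2105 against 1416, 1526 and 1354 (-0.37 ± 0.09), and for Rps18 3318, 2887 and 2917 against 2316, 2396 and 2565 (-0.32 ± 0.07). Rps28 and Rps12 were highest on d5, and the list's median deviation from each gene's own mean was 0.04, 0.02 and 0.10 on d1, d3 and d5. Ribosomal protein genes have many processed copies: 38 of the 59 had several probe sets. Of the 23 early genes 17 had several, and in 8 of these 17 all probe sets lay wholly above early, so the source of the signal is uncertain for many of them.

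Other genes of protein synthesis and turnover were less separated. Without d1, 3 of these lists held more late than early genes, as did all genes kept (4.07% early and 15.3% late). Ribosome biogenesis had 3 of 53 genes wholly above early, 0 late and a median of -0.09, and translation initiation 2 of 35 early and 0 late. Biogenesis had 3 early (5.66%) and 7 late (13.2%) without d1, and initiation 3 early (8.57%) and 8 late (22.9%). The early counts without d10 were 11 (20.8%) and 7 (20%), against 8.19% of all genes. Without d5 biogenesis had 11 early (20.8%, against 8.63%). Among tRNA synthetases 1 of 17 lay wholly above early and 0 late, and in the proteasome 4 of 45 early and 1 late. Without d1 the synthetases had 1 early and 6 late (35.3%, against 15.3% of all genes). The proteasome had 9 early and 4 late without d5, 8 early without d10, and 4 early and 5 late without d7. Odc1, which makes the first polyamine, had intensities of 1481, 1181 and 1381 early and 1083, 1106 and 982 late (-0.35 ± 0.10), and Azin1, which shields it from breakdown, 846, 677 and 620 against 571, 538 and 458 (-0.45 ± 0.14). These were the 2 of 8 polyamine genes wholly above early (25%, against 2.51% of all genes), and the list's median was 0.02. Igf1, the local growth factor of muscle, stood at 670, 689 and 712 early and 626, 577 and 547 late, a small difference of -0.25 ± 0.06 with d0 lower at 469.

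Macrophage genes were higher early, Cd68 far more than the others. Of 20 genes 6 (30%, against 2.51% of all genes) lay wholly above early and 0 late, with a median of -0.29. Without d10 the count was 16, and without d5 it was 10, in settings where 8.19% and 8.63% of all genes lay wholly above early. Cd68, a lysosomal glycoprotein of macrophages, had intensities of 1346, 1068 and 714 early and 306, 431 and 253 late, against 326 at d0. The early days were all above d0 and the late days on either side of it. The difference of -1.65 ± 0.28 (limma, unadjusted p 0.00089, adjusted p 0.53) was -1.44 without d1. C1qb, a chain of the first complement component, was 885, 959 and 880 early against 658, 786 and 599 late (-0.42 ± 0.10). Adgre1, the F4/80 antigen, was 216, 206 and 216 against 162, 192 and 155 (-0.33 ± 0.09). On both, d10 was the highest of the late days.

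Summed over the marker list, macrophage intensity was 6488 to 7703 early and 4753 to 6347 late, with d10 the highest late array. In RNA of a whole muscle, fewer cells of a type and less RNA per cell cannot be told apart. Cxcl13, a chemokine that attracts B cells, stood at 284, 270 and 934 early and 191, 244 and 189 late; the difference of -1.01 ± 0.48 came from d5 and was -0.42 without it. Wfdc17, a small secreted protein of activated macrophages, was 689, 969 and 827 early and 433, 569 and 386 late (-0.85 ± 0.18). Ccl9, a chemokine for myeloid cells, differed by -0.41 ± 0.10. Neutrophil genes had 0 of 12 members wholly above on either side, though all 12 means were higher late; their median of 0.34 became -0.21 without d10. Their summed markers were 2451 to 4672 early and 2246 to 10133 late, the last on d10 alone. Eosinophil markers likewise reached 1396 on d10 against 510 to 617 on the other 5 days, and the part of these cells in the other differences was not tested.

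Several developmental contractile genes lay higher early, and genes of the nerve endplate lay on either side. Mybph, a myosin-binding protein, had intensities of 473, 433 and 465 early and 350, 273 and 257 late (-0.65 ± 0.12; limma, unadjusted p 0.0012). Its early days were close together and d10 and d14 were below the d0 value of 319. It was 1 of 4 genes wholly above early among 6 developmental contractile genes (66.7%, against 2.51% of all genes). The others were Tnnt2 (-0.32 ± 0.11, and -0.19 without d1), Myh3 (-0.20 ± 0.10, and -0.10 without d1) and Myh8 (-0.07 ± 0.04). The count depended on scaling: it was 3 after quantile normalization (50%, against 5.13% of all genes) and 2 with equal array medians (33.3%, against 2.43%). Actc1, the cardiac actin also made in immature muscle and named here after its values were seen, lay the other way, at 1228, 1585 and 2404 early and 3741, 2243 and 1896 late (0.59 ± 0.33), and its sides overlapped. The denervation list, which holds the acetylcholine receptor subunits, had 2 of 17 genes wholly above early and 1 late (7 and 2 without d5), and its median of -0.13 became 0.0070 without d1. Chrna1, the alpha subunit of the muscle acetylcholine receptor, was 878, 478 and 466 early and 434, 425 and 408 late; -0.46 ± 0.24 became -0.16 without d1. Chrne, the subunit of the adult receptor, lay wholly above late instead, at 418, 422 and 542 against 612, 546 and 565 (0.33 ± 0.11).

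**Figure D3:**
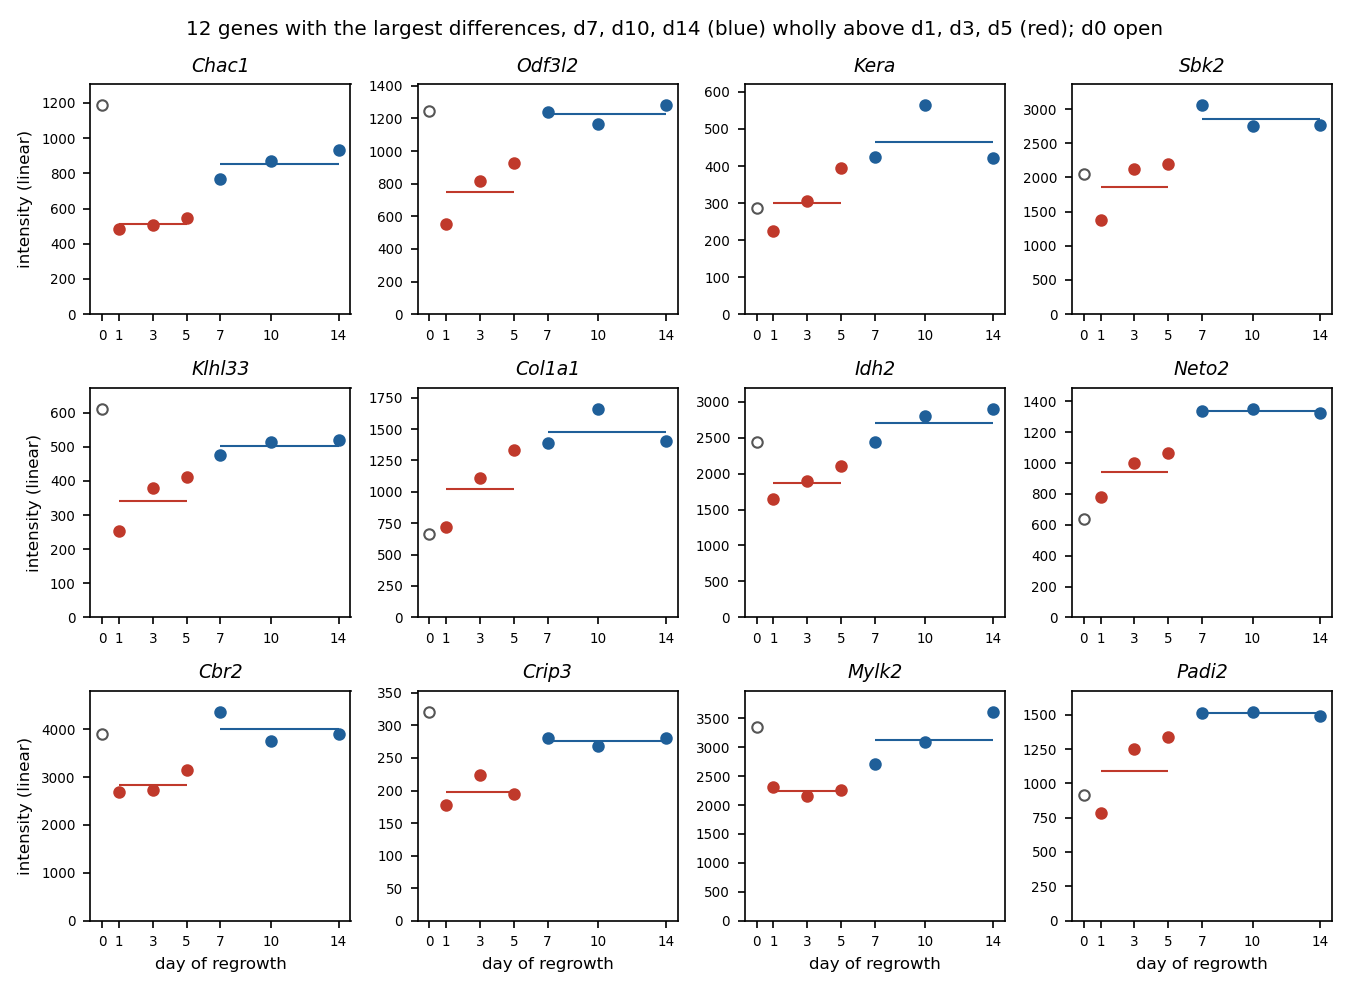
Intensity (linear y axes from 0) on each day of regrowth for the 12 genes with the largest differences among those wholly above late. Red points are d1, d3 and d5, blue points d7, d10 and d14, open points d0, and lines the mean of each side taken on the log2 scale; d1 is the lowest of the 6 days for every gene but Mylk2, and the late days of Neto2 lie above d0.

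The largest late differences belonged to genes of varied roles. Chac1, which degrades glutathione, had intensities of 484, 507 and 548 early and 768, 871 and 931 late, a difference of 0.74 ± 0.09 (limma, unadjusted p 0.0001, adjusted p 0.53). Each day was higher than the one before, but d0 was above all of them at 1186. Odf3l2 stood at 550, 818 and 928 early and 1239, 1163 and 1280 late (0.71 ± 0.19), with d0 at the late level, 1244. For Klhl33, a kelch protein, d0 was the highest array at 612, above 254, 380 and 412 early and 475, 515 and 520 late (0.56 ± 0.18, and 0.35 without d1). Sbk2, a kinase, ran 1382, 2124 and 2194 early and 3054, 2758 and 2767 late (0.62 ± 0.18, and 0.40 without d1).

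Mylk2, the skeletal muscle myosin light chain kinase, had intensities of 2310, 2157 and 2256 early and 2715, 3099 and 3614 late (0.48 ± 0.10). Cbr2, a carbonyl reductase, was 2681, 2733 and 3142 against 4367, 3748 and 3908 (0.49 ± 0.09), and Crip3, a LIM protein, 177, 224 and 194 against 280, 269 and 281 (0.48 ± 0.09). In these 3 genes d0 was within or above the late values, at 3352, 3911 and 321. Neto2, an accessory subunit of kainate receptors, stood at 781, 997 and 1065 early and 1337, 1353 and 1323 late (0.51 ± 0.12), and d0 was below both sides at 639. Padi2, which converts arginine to citrulline in proteins, was lower on d1 (781) than on d3 and d5 (1250 and 1337) and reached 1513, 1522 and 1494 late; its 0.47 ± 0.20 became 0.22 without d1.

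Enzymes of branched-chain amino acid breakdown had the highest median of the metabolic lists. All 20 means were higher late, 14 genes (against 7.47% of all genes) lay wholly above late and 0 early, and the median was 0.24. Bcat2, the mitochondrial transaminase of the first step, had intensities of 607, 663 and 699 early and 870, 904 and 879 late (0.43 ± 0.06; limma, unadjusted p 0.00036). Its late values lay close together and above d0, at 731. Bckdha, a subunit of the branched-chain ketoacid dehydrogenase that commits the carbon to breakdown, was 582, 585 and 674 against 766, 876 and 878 (0.45 ± 0.09). Ivd, the next enzyme for leucine, was 1028, 1188 and 1327 against 1544, 1608 and 1617 (0.44 ± 0.09). Leaving out 1 array cannot lower the count for the list, which was then 14 to 18 (70% to 90%, against 10.6% to 15.3% of all genes).

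Fatty acid genes lay to the same side: 19 of 30 (63.3%) lay wholly above late and 0 early, with a median of 0.21. Slc27a1, a fatty acid transport protein of the cell membrane, had intensities of 1144, 1119 and 1140 early and 1508, 1508 and 1526 late. Its difference of 0.42 ± 0.04 had the smallest p of all genes (limma, unadjusted p 3.4e-05, adjusted p 0.41), and d0 lay between the sides at 1405. Acads, the short-chain acyl-CoA dehydrogenase, was 863, 1010 and 1057 against 1335, 1306 and 1338 (0.45 ± 0.08). Acaa2, the thiolase of the last step of beta-oxidation, was 2331, 2692 and 3069 against 3483, 3473 and 3495 (0.38 ± 0.10). Cpt2, which reloads fatty acids onto coenzyme A inside the mitochondrion, differed by 0.37 ± 0.10. The lipid carrier Fabp3 (0.20) and the transporter Cd36 (0.08) were among the members whose sides overlapped.

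Citric acid cycle genes had 14 of 22 members (63.6%) wholly above late, 0 early, and a median of 0.18, with all 22 means higher late. Idh2, the mitochondrial isocitrate dehydrogenase that makes NADPH, had intensities of 1651, 1894 and 2105 early and 2436, 2794 and 2903 late. Each day was higher than the one before, from well below d0 (2435) on d1 to above it on d10 and d14, and Idh2 differed by 0.53 ± 0.11 (limma, unadjusted p 0.0023). Fh1, fumarase, was 2508, 2798 and 2854 against 3270, 3217 and 3300 (0.26 ± 0.06), and Sucla2, a subunit of succinyl-CoA synthetase, differed by 0.26 ± 0.08. Mdh2, whose promoter is printed above, was 8970, 10245 and 9985 early and 11346, 11066 and 11254 late (0.21 ± 0.05). Ogdh was 5703, 5339 and 4927 against 5908, 5989 and 5998 (0.17 ± 0.06), lowest on d5 rather than d1.

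The cAMP response element stood in 1.55% of all promoters. Of the 716 late genes with a promoter 22 held it (3.07%), close to the 2.88% of all genes kept, so the late set as a whole did not stand out. Of the 12 late citric acid genes with a window 2 held it, Mdh2 and Ogdh. The ERR element (TNAAGGTCA, both strands, 1.14% of promoters) was found in 2 of the 716 (0.279%, against 0.834% of all genes kept). The CArG box was searched by name on both strands (1.47% of promoters). It was found in 12 of the 716 (1.68%) and in 4 of the 249 early genes (1.61%), against 1.51% of all genes kept.

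**Figure D4:**
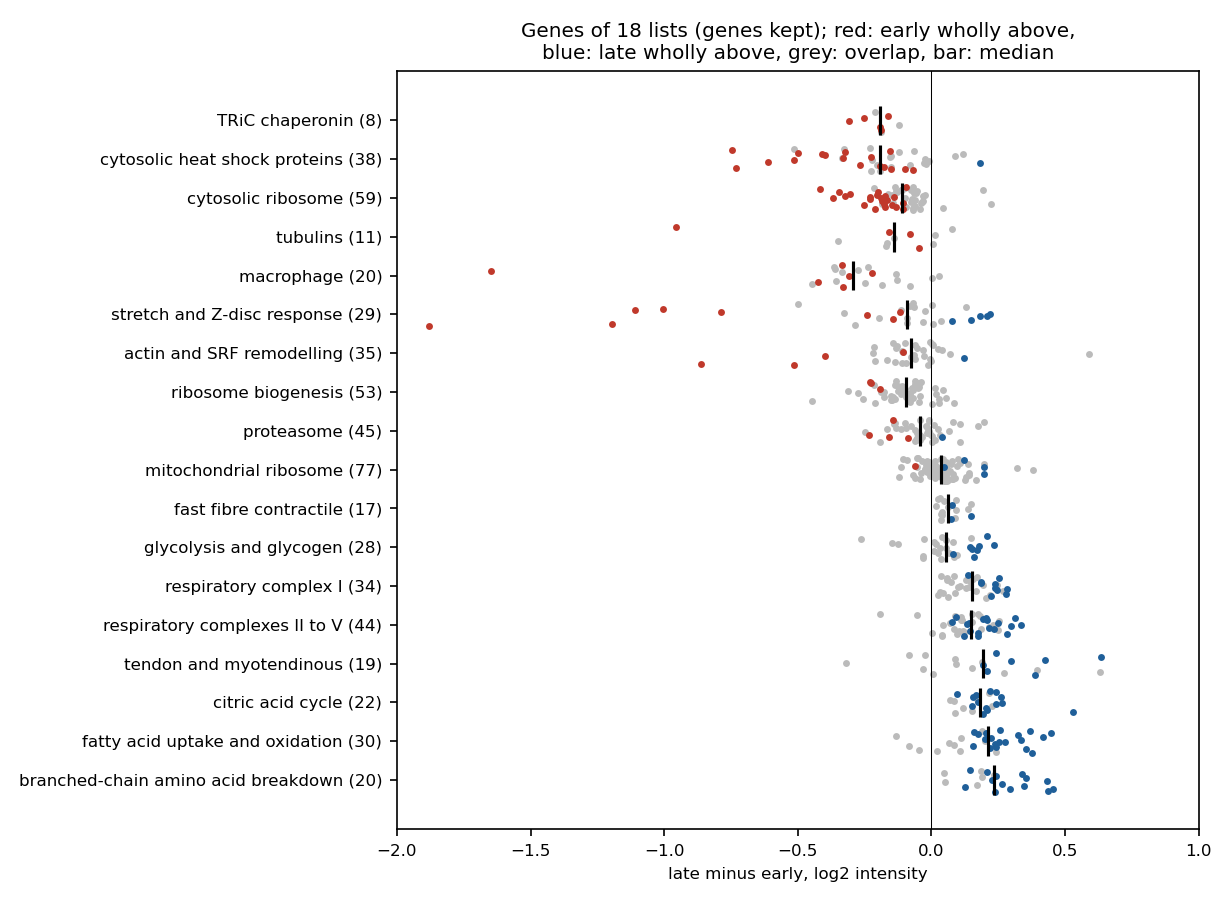
Late minus early difference in log2 intensity (x axis) for the genes kept of 18 lists (y axis, number of genes in brackets). The list labelled cytosolic heat shock proteins also holds the mitochondrial Hspe1, Hspd1 and Hspa9. Red genes lay wholly above early, blue genes wholly above late, grey genes overlapped, and the black bar is the list median; the heat shock bar lies at -0.19 and the branched-chain bar at 0.24.

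Subunits of the respiratory chain were higher late by a smaller median than the enzymes that feed it; the difference between the lists was not tested. In complex I all 34 means were higher late, 10 genes (29.4%) lay wholly above late and 0 early, and the median was 0.15. In complexes II to V 18 of 44 (40.9%) lay wholly above late and 0 early, with the same median. Ndufv1, the subunit that takes electrons from NADH, had intensities of 3709, 3768 and 3941 early and 4416, 4658 and 4797 late (0.28 ± 0.05; limma, unadjusted p 0.0009). Cox4i1, of cytochrome oxidase, was 2484, 2776 and 3208 against 3376, 3627 and 3615 (0.33 ± 0.10), and Uqcrc1, of complex III, 4371, 5208 and 5273 against 5950, 6088 and 5958 (0.28 ± 0.08). On Cox4i1 d5 came close to the late days. Summed markers of skeletal muscle were also slightly higher late, 161136 to 166058 early and 166831 to 169267 late, with 3 of 11 wholly above late, and their part in the metabolic lists was not tested. The counts turned on d5: without it 30 complex I genes (88.2%) and 36 genes of complexes II to V (81.8%) lay wholly above late, against 11.6% of all genes. The medians turned on d1: without it they fell to 0.083 for complex I and 0.088 for complexes II to V.

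Mitochondrial ribosomal proteins were nearer the background, with 4 of 77 genes wholly above late, 1 early and a median of 0.04; without d5 the late count was 20 and without d7 it was 17. Glycolysis and glycogen genes had 8 of 28 wholly above late, 0 early and a median of 0.06, among them Pkm, pyruvate kinase, at 7117, 7082 and 6664 early and 8405, 7948 and 8202 late (0.24 ± 0.04). Most enzymes of the pathway, such as Aldoa (0.04), Eno3 (0.02) and Ldha (0.04), overlapped. The regulators of mitochondrial content had 2 of 20 genes wholly above late, Mfn2 and Opa1, both of mitochondrial fusion, and 2 early, Tfb1m and Dnm1l; without d1 the late count was 5.

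The lists differed in their course over the 6 days. Heat shock genes had median deviations from each gene's own mean of 0.27, 0.02 and -0.04 on d1, d3 and d5 and of -0.09, -0.06 and -0.11 on d7, d10 and d14, so d1 held most of the height. Macrophage genes stood at 0.18, 0.21 and 0.02 early and at -0.23, 0.06 and -0.31 late, with d10 back above d5. Fatty acid genes were higher on each early day, from -0.20 to -0.10 and -0.02, and then stood at 0.09, 0.13 and 0.09. Complex I was at the late level by d5, with -0.18, -0.08 and 0.07 early and 0.05, 0.06 and 0.10 late. Branched-chain genes were still low on d5, at -0.18, -0.15 and -0.04 early against 0.07, 0.18 and 0.13 late.

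**Figure D5:**
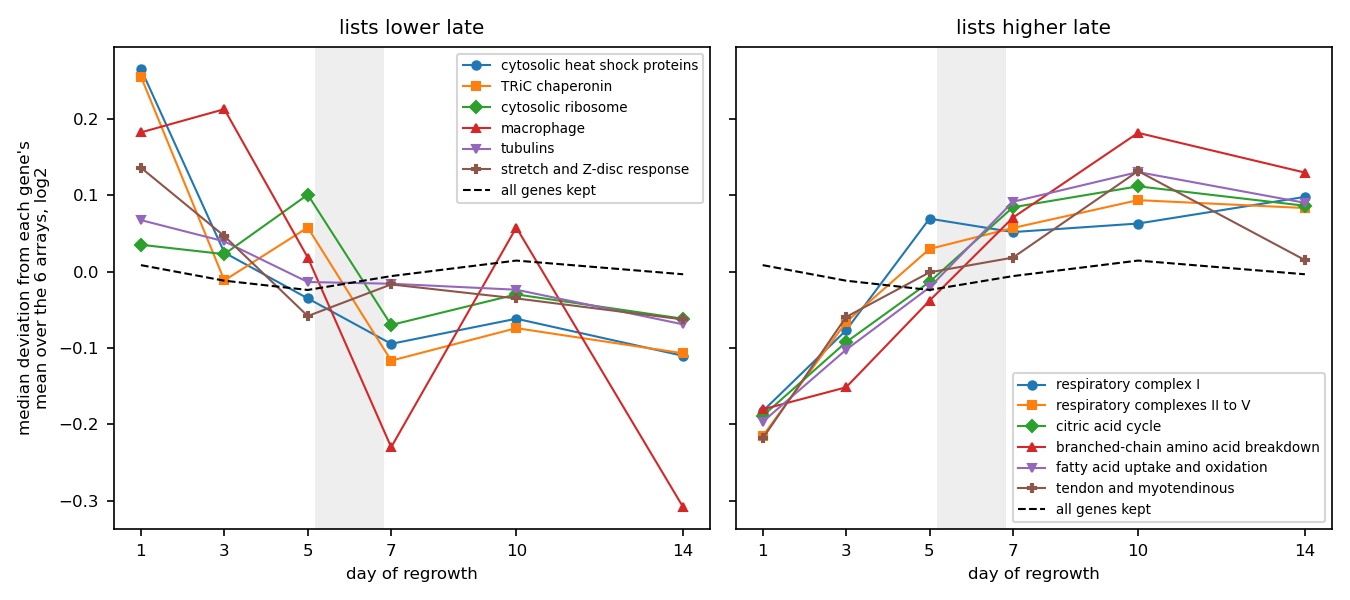
Median deviation of a list's genes from each gene's mean over the 6 arrays (y axis, log2) on each day of regrowth (x axis), 1 line per list. Heat shock genes start at 0.27 on d1 and end at -0.11 on d14, and fatty acid genes start at -0.20 and end at 0.09.

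Fast fibre contractile genes differed little, and slow fibre genes varied widely within the sides. All 17 fast fibre means were higher late, with a median of 0.06, and 3 lay wholly above late; without d1 or without d5 the count was 9. Myoz1, a Z-disc protein of fast fibres, had intensities of 11876, 11816 and 11824 early and 12714, 13227 and 13376 late (0.15 ± 0.03). The slow fibre list had 0 of 14 genes wholly above on either side and a median of -0.12; without d10, 5 lay wholly above early. Tnni1, the slow troponin I, was 812, 1136 and 733 early and 536, 794 and 422 late (-0.64 ± 0.26), and Myl6b, a light chain of slow fibres, 216, 556 and 439 against 288, 268 and 213 (-0.56 ± 0.34, and -0.27 without d3). The sides of Tnni1 overlapped because d10 exceeded d5, and those of Myl6b because d1 was below d7 and d10. Myh7, the slow myosin heavy chain, was 389, 776 and 314 early and 270, 435 and 295 late (-0.48 ± 0.36, and -0.10 without d3), high on d3 and d10. Myh2 stood at 8223, 11865 and 10885 early and 11270, 11739 and 10896 late (0.15 ± 0.13), low on d1 alone. Myh4 (0.04 ± 0.03) and Myh1 (0.09 ± 0.04) overlapped.

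Among genes of protein breakdown and growth restraint a few members lay wholly above late, in shares not far from the 7.47% of all genes for autophagy and atrophy. Ulk1, the kinase that starts autophagy, had intensities of 730, 820 and 688 early and 1048, 967 and 966 late (0.42 ± 0.08; limma, unadjusted p 0.0015), with d0 near the late level at 920. It was 1 of 4 of 35 autophagy and lysosome genes (11.4%) wholly above late, with Ulk2 at 0.22 ± 0.06, and of 24 atrophy genes 3 (12.5%) lay wholly above late. Without d1 there were 13 (37.1%) and 10 (41.7%), against 15.3% of all genes, and without d7 there were 10 autophagy genes (28.6%, against 14.8%). The ubiquitin ligases Fbxo32 (2872, 2276 and 1835 early; 2495, 2741 and 3023 late) and Trim63 (1595, 1383 and 1303 early; 1464, 1464 and 1654 late) overlapped, since d1 lay among the late values. Gadd45b, a growth arrest gene, was 438, 370 and 502 against 560, 589 and 643 (0.46 ± 0.12), and Gadd45g differed by 0.30 ± 0.09. Mstn, which restrains muscle growth, overlapped (0.14 ± 0.08, and 0.06 without d3). Of 22 genes of the myostatin list 4 (18.2%) lay wholly above late, Acvr1b the farthest (0.25 ± 0.07); without d1 or without d14 the count was 8 (36.4%, against 15.3% and 11.3% of all genes).

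Tendon genes and a few matrix genes were higher late. Of 19 tendon and myotendinous genes 7 (36.8%) lay wholly above late and 0 early, with a median of 0.19. Kera, a proteoglycan of collagen-rich tissue, had intensities of 225, 305 and 395 early and 424, 564 and 423 late (0.63 ± 0.22), and Chad, a matrix protein of cartilage and tendon, 2247, 2793 and 3099 against 3143, 3750 and 3697 (0.39 ± 0.13, and 0.26 without d1). Both were higher on each early day than on the one before, and highest on d10. Summed tendon markers were 10196 to 12230 early and 12582 to 13904 late; the part of tendon in the sample in these values was not tested.

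The list of fibrillar collagen and processing genes was split. Col1a1 had intensities of 721, 1111 and 1335 early and 1392, 1663 and 1401 late; its 0.53 ± 0.22 became 0.28 without d1, and d0 was lower at 662. Col1a2 followed, with 769, 1013 and 1115 against 1250, 1438 and 1234 (0.45 ± 0.14, and 0.30 without d1). Col8a1, a short-chain rather than a fibrillar collagen but on the same list, lay the other way. It stood at 297, 407 and 357 early and 252, 245 and 201 late (-0.60 ± 0.14). Of 27 genes of the list 2 lay wholly above early and 3 late (6 late without d14), with a median of -0.02. Postn, a matricellular protein of repair, was 833, 1590 and 1216 early and 620, 957 and 617 late (-0.71 ± 0.28); d10 exceeded d1, so the sides overlapped. Cilp, a cartilage matrix protein, lay wholly above early at 659, 768 and 640 against 488, 522 and 448 (-0.50 ± 0.09).

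Where d0 lay differed between the early and late sets. Of the 303 early genes 251 (82.8%) had a d0 value nearer the late mean, and for 231 d0 was within or below the lower side. Of the 900 late genes 542 (60.2%) had a d0 value nearer the lower, early side, and for 279 d0 was within or above the late side. Over all genes kept 50.2% had d0 nearer the late mean. Few genes ran in order of day: 31 of the 303 (10.2%) were lower on each successive day and 57 of the 900 (6.33%) higher on each. Without d1 a median of 82.4% of the difference was left in the early set and 92.2% in the late set.

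Several other lists held few genes that separated the sides, but in some of them the late share was above the 7.47% of all genes. Of 24 immediate early genes 1 lay wholly above early, Atf3, and 1 late, Nr4a1 (0.30 ± 0.10); without d5 the early count was 5. Mitosis and replication had 0 of 19 on either side and a median of -0.08. Without d10, 8 lay wholly above early (42.1%, against 8.19% of all genes), and without d5, 7 (36.8%, against 8.63%). Interferon-stimulated genes had 0 of 19 on either side, and endothelial genes 1 of 20 late, Vegfb (0.17 ± 0.05), or 5 without d3. The circadian list had 3 of 17 late (17.6%) and 0 early, with Tef at 0.20 ± 0.07 and Nr1d1 at 0.14 ± 0.05. Its late count without d1 was 10 (58.8%, against 15.3% of all genes). Calcium handling had 5 of 26 late (19.2%) and 1 early, and 11 late without d1 (42.3%, against 15.3%). Stim1, the calcium sensor of the sarcoplasmic reticulum, differed by 0.18 ± 0.05. Basement membrane genes had 5 of 20 late (25%) and 0 early, and 8 late without d10 (40%, against 12.4%). Col15a1, from this list, differed by 0.19 ± 0.07 (0.12 without d1). Satellite cell genes had 1 of 17 early, Mymk, which fuses myoblasts (-0.32 ± 0.12, and -0.21 without d10), and 1 late, Chodl (0.33 ± 0.09). Without d5 this list had 5 early (29.4%, against 8.63% of all genes), and without d14 it had 3 late.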

How the data were processed

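The authors deposited linear intensities, 1 per probe set and array, with nearly equal array medians. Partek is the one tool in the submitters' processing notes; how values were normalized, and on which build, is not given in the sources used here. Values were taken to log2 (pseudocount 0). Of 35556 probe sets 21789 had a single gene symbol in the platform annotation and 1621 several. These gave 19938 genes, each read from its probe set of highest mean, and 12053 reached 129.8, the median of all probe sets, on at least 1 of the 6 arrays.

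Late and early days were compared with limma 3.58.1 in R 4.3.3 (lmFit, eBayes with an intensity trend, two-sided), with Benjamini-Hochberg adjustment over all 12053 genes at 0.05. The script was tested on simulated data. Because each day is 1 pool, the p-values measure the spread between days. Named genes were the 12 largest differences each way among genes with no overlap, leaving out predicted genes, clones, receptors and small RNAs, up to 4 members of each of 53 gene lists (2 where fewer had no overlap) and a fixed set of 10. The arrays, lists and rule were chosen with earlier results of these data known. Promoter windows came from RefSeq and matched 148 of the 180 named genes. Alternatives were other filters, scalings, probe set rules, a pseudocount of 16, other limma settings and each array left out. Python 3.11.15, numpy 2.4.6, pandas 2.3.3 and matplotlib 3.10.9 served for counts and plots.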

Additional observations from a re-analysis of the deposited data

How the results depend on the processing

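No setting called a gene in limma: over 16 alternatives the smallest adjusted p lay between 0.1456 (filter at percentile 75) and 0.9824 (without d14). Genes wholly above numbered 303 early and 900 late, and 617 and 1081 after quantile normalization. With 1 array left out they ranged from 424 (without d14) to 1040 (without d5) early and from 1280 (without d3) to 1845 (without d1) late. The early counts without d1, d3, d7 and d10 were 491, 557, 658 and 987, and the late counts without d5, d7, d10 and d14 were 1404, 1781, 1499 and 1364. Other filters, equal medians, the pseudocount and the mean of a gene's probe sets gave 234 to 393 early and 697 to 1096 late. Among 180 named genes 8 changed sign, each with 1 array left out, and all of them were genes whose sides overlapped. A gene wholly above on a side cannot change sign when an array is left out, so its steady sign there is no measure of stability. Without d1 Hspa5 was at 0.012 and Myh2 at -0.0087. Without d10 Ear6 was at -0.28, Mpo at -0.042, Prg2 at -0.038, Retnlg at -0.14 and S100b at 0.019. Without d14 Ccna2 was at 0.046. The cause was not tested. Of 689 list medians under the alternatives 35 moved by more than the spread between the days of a side. That spread includes a high or low d1, so a list can lose its difference and still not count as moved. Without d1 the median of endoplasmic reticulum chaperones went from -0.099 to -0.0017, and that of ribosome biogenesis from -0.094 to -0.00096. No paired analysis was possible because the labels give no replicate numbers and each day is 1 pool.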
